A study of Mus musculus with 4 samples.

Results

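The Six-family, Eya and Dach genes encode a transcriptional network that is first known from the insect eye and that also acts in the cranial placodes, the ectodermal thickenings from which the inner ear and its neurons arise. SIX-family proteins are homeodomain factors that bind DNA, EYA proteins are coactivators that carry a phosphatase domain and do not bind DNA themselves, and DACH proteins are nuclear cofactors related to SKI. In the inner ear the network is known for otic vesicle growth and for the production of neuroblasts, the young neurons that leave the otic epithelium to form the cochleovestibular ganglion (CVG).

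Here 8 genes of this network, chosen by gene symbol (Six2, Six4, Six5, Eya1, Eya2, Eya3, Eya4 and Dach1), were followed across all the deposited libraries. Each was found as 1 row of each table, so that 8 of 25239 symbols were described, and all 8 passed the filter of 1 TPM in at least 1 library that left 15049 genes. TPM is a transcript abundance corrected for gene length and scaled to the library total. RNA came from mouse CVG at embryonic day 11.5, with 1 library each labelled Isl1CKO, Pou4f1KO, DKO and control. The labels give these genotypes by name only. Isl1CKO was read as a conditional deletion of the LIM-homeodomain gene Isl1, Pou4f1KO as a deletion of the POU-homeodomain gene Pou4f1 and DKO as a deletion of both; the driver of the conditional allele, the alleles of the control and the number of embryos behind a library are not given in the sources used here.

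There were no replicates, so no difference below has a replicate check, no p-value was computed and genes are called higher or lower in a library. Aligned sequence came to 13.6 gigabases in the library labelled Isl1CKO, 16.6 in Pou4f1KO, 16.1 in the library labelled DKO and 16.6 in control. Pou4f1 was at 188, 16.6, 14.6 and 146 TPM in these libraries, in that order, which goes with its labels. Isl1 was at 854 TPM in the library labelled Isl1CKO, 340 TPM in Pou4f1KO, 579 TPM in the library labelled DKO and 450 TPM in control. It therefore went against both labels that name an Isl1 deletion, being above control in both and, in DKO, also above Pou4f1KO, although a gene-level value may miss the part that a conditional allele removes. The names Isl1CKO and DKO below stand for the libraries so labelled. Neuronal RNA was found in all the libraries. The 19 CVG neuron markers summed to 13194.6 TPM in Isl1CKO, 12796.3 in Pou4f1KO, 11477.5 in DKO and 11914.9 in control. Tubb3, a neuronal tubulin gene, was at 2757 to 3017 TPM in the 3 mutant libraries and 2636 TPM in control. Others went the other way, such as Prph at 112, 119 and 61.2 TPM, against 162 TPM in control. None of the 19 was at 0 in any library, but Pvalb was below 1 TPM in Pou4f1KO (0.535 TPM). RNA of otic epithelium markers was found in all the libraries too, the 26 of them summing to 315 TPM in DKO, the lowest, and 939 TPM in control. All 26 were above 0, which is a weak criterion, and 3 were below 1 TPM in DKO and 1 in each other library.

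The stretches upstream of the start sites of Six2 and Eya4 are shown because these were the 2 members whose levels differed most. That of Dach1 is shown as an example of a member whose level hardly differed, although Eya3 and Six4 differed even less. Each is 250 bases of RefSeq sequence (GRCm38.p6, the assembly of mm10) that ends at the start site given in the deposited tables, printed 5′ to 3′ on the gene's strand. Capitals mark TAAT or its reverse complement ATTA, the core letters bound by many homeodomain proteins. The windows are chr17:85688255-85688504 for Six2, chr10:23349944-23350193 for Eya4 and chr14:98169766-98170015 for Dach1, all on the minus strand.
Six2: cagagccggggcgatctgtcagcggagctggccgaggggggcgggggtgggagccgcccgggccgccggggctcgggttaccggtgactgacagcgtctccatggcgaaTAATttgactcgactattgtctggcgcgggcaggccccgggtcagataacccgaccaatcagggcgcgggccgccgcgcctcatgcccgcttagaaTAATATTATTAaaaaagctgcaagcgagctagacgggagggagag
Eya4: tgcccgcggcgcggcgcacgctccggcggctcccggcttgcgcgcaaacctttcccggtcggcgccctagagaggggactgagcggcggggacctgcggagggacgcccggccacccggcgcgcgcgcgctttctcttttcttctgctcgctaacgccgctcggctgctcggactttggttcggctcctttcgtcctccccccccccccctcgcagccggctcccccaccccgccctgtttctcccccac
Dach1: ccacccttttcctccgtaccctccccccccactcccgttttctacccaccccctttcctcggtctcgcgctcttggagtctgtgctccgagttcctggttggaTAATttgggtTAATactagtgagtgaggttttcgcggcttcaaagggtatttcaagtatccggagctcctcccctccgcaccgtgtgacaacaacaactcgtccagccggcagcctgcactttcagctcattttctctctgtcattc

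The Six2 window held 4 matches to TAAT on either strand, whose 5′-most bases lie 141, 45, 41 and 38 bases before the start site, and the last 3 form 1 unbroken run in which the last pair shares a base. The Dach1 window held 2 matches, 147 and 137 bases before the start, and the Eya4 window held none. At the deposited start sites of members not printed, the windows of Eya3 and Six4 held 0 matches and that of Six5 held 1. The matches thus do not sort the members by how much their levels differed. For scale, 54.9% of all 32851 upstream windows of this length in the RefSeq table hold at least 1 TAAT on either strand. The Eya4 window was 74.0% G and C and the Six2 window 64.8%, against a median of 52.4% over all windows. The longer letters ATAATTAAT, a form of the POU4F recognition sequence, were in none of the windows of the 6 members with a RefSeq entry and in 0.259% of all windows. Eya1 and Eya2 had no entry. A match is a description of letters, and its absence says nothing about binding.

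TCAGGTT is the core of the MEF3 element that SIX-family proteins are known to bind. It was found once among these members, 97 bases upstream of a second Six4 start site. That site is not the deposited start at 73113425, and the match lies inside the deposited Six4 row, downstream of the deposited start. The window at the deposited start held 0 matches. The run printed here is chr12:73113326-73113352 on the minus strand, and capitals in it mark the match on the opposite strand (AACCTGA). This element, on either strand, is in 3.49% of all windows.
Six4: gcctgggggaAACCTGAtcggccagat

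**Figure D1:**
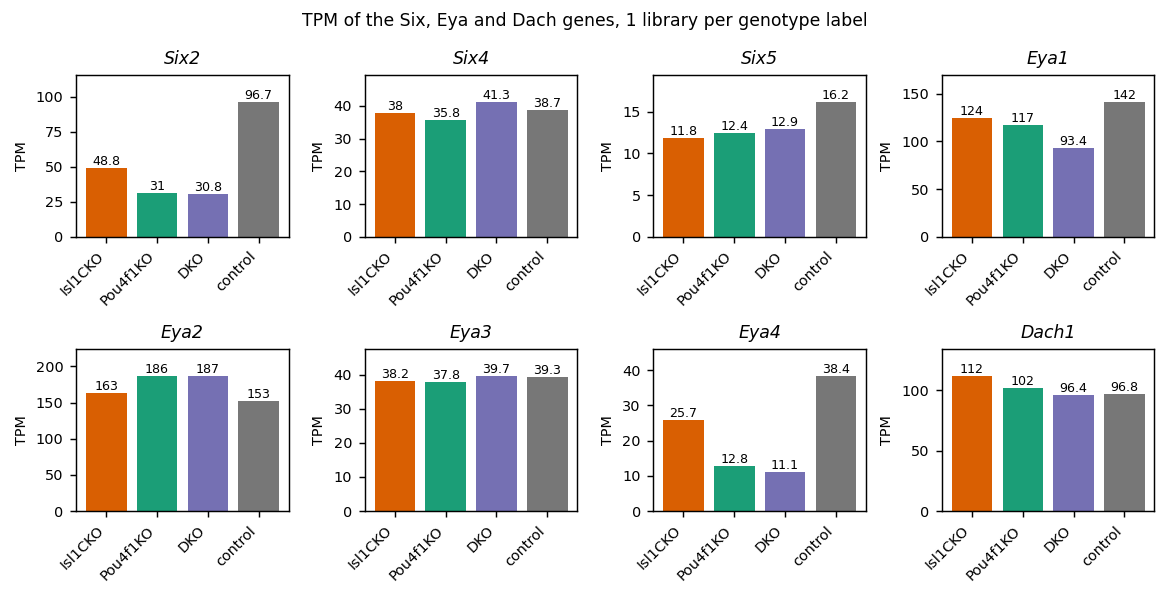
TPM (y axis, from 0) of the 8 genes in the libraries labelled Isl1CKO, Pou4f1KO, DKO and control (x axis), 1 bar per library with its value and no error bar, since each genotype has 1 library. Six2 and Eya4 stand highest in control and lowest in DKO, while Eya3 and Six4 stand at nearly the same height throughout.

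Among the Eya coactivators, Eya4, known from an inherited form of progressive hearing loss, differed most. Eya4 (mm10 chromosome 10, 23102962 to 23349943, on the minus strand, with as many as 20 exons in GENCODE M21) was at 25.7 TPM in Isl1CKO, 12.8 TPM in Pou4f1KO, 11.1 TPM in DKO and 38.4 TPM in control. Both libraries with Pou4f1 deleted were below both libraries without that label. Differences between libraries are given as the log2 ratio of (TPM + 1), and a gene was called higher or lower at 2-fold, a ratio of at least 1 in size. For Eya4 the log2 ratio to control was −0.56 in Isl1CKO, −1.52 in Pou4f1KO and −1.71 in DKO. Within the 15049 compared genes these ratios lay at percentiles 3.69, 0.585 and 0.631 of their comparison. The mean depth over the gene's bases was 125, 71.8, 62.9 and 223 reads in the same order of libraries.

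Eya1, which is mutated in branchio-oto-renal syndrome and needed for ear formation in mice, lies on chromosome 1 (14168958 to 14310199, on the minus strand, with as many as 18 exons). It was at 124 TPM in Isl1CKO, 117 TPM in Pou4f1KO, 93.4 TPM in DKO and 142 TPM in control. Every mutant library was below control and DKO was the lowest, but no ratio reached 2-fold. The log2 ratios to control were −0.19, −0.28 and −0.60, and only the last reached 1.5-fold, a ratio of at least 0.585 in size. It was just past that line, and in FPKM with the same pseudocount it was −0.57, short of it.

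Eya2, a coactivator gene known from placode-derived neuroblasts, had the largest TPM of the 8 genes in every library. Eya2 (chromosome 2, 165595028 to 165771727, on the plus strand, with as many as 16 exons) was at 163 TPM in Isl1CKO, 186 TPM in Pou4f1KO, 187 TPM in DKO and 153 TPM in control. The mutant libraries were slightly above control, with log2 ratios of 0.09, 0.29 and 0.29. The first of these became −0.10 and the second −0.02 when the libraries were brought to equal levels of pan-neuronal genes (pan-neuronal scaling), so no direction is given for Isl1CKO or Pou4f1KO. Its level also depends on the column that is read. The deposited coverage, which is the average depth of reads per base, was 53.6, 71.6, 72.5 and 60.3 for Eya2, which is 15.0 times less per FPKM than in most genes of each library. Only 0.703% to 0.742% of genes with at least 1 FPKM had so low a coverage for their FPKM. On the scale of coverage, Eya2 would stand at 10.8, 12.4, 12.4 and 10.2 TPM, low among the 8 genes. The ratios between libraries were nearly the same on both scales (0.08, 0.26 and 0.27 from coverage), so the comparisons are less touched by this than the level.

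Eya3, the most broadly expressed of the family, was the steadiest of the 8 genes. Eya3 (chromosome 4, 132639046 to 132724765, on the plus strand, with as many as 18 exons) was at 38.2 TPM in Isl1CKO, 37.8 TPM in Pou4f1KO, 39.7 TPM in DKO and 39.3 TPM in control, so that its highest value was 1.05 times its lowest. These 4 levels cannot be put in an order, since no spread between replicates is known.

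Summed over the 4 genes, Eya TPM came to 351 in Isl1CKO, 353 in Pou4f1KO, 331 in DKO and 372 in control. On the TPM scale, which Eya2 leads, the make-up of the sum differed more than its size. Eya4 made up 7.34%, 3.61% and 3.34% of it in Isl1CKO, Pou4f1KO and DKO, against 10.3% in control, and Eya1 made up 35.4%, 33.0% and 28.2%, against 38.1% in control. The Eya2 share was 46.3%, 52.7% and 56.5%, against 41.0% in control. From coverage, where Eya2 counts for little, the sum was 198, 179 and 156, against 227 in control, and Eya1 held 62.6%, 65.1% and 59.7% of it, against 61.9% in control. The lower Eya1 share in Pou4f1KO and Isl1CKO is thus tied to the TPM scale, whereas the Eya4 share was below control on both scales (12.7%, 6.96% and 6.93% from coverage, against 16.5% in control).

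**Figure D2:**
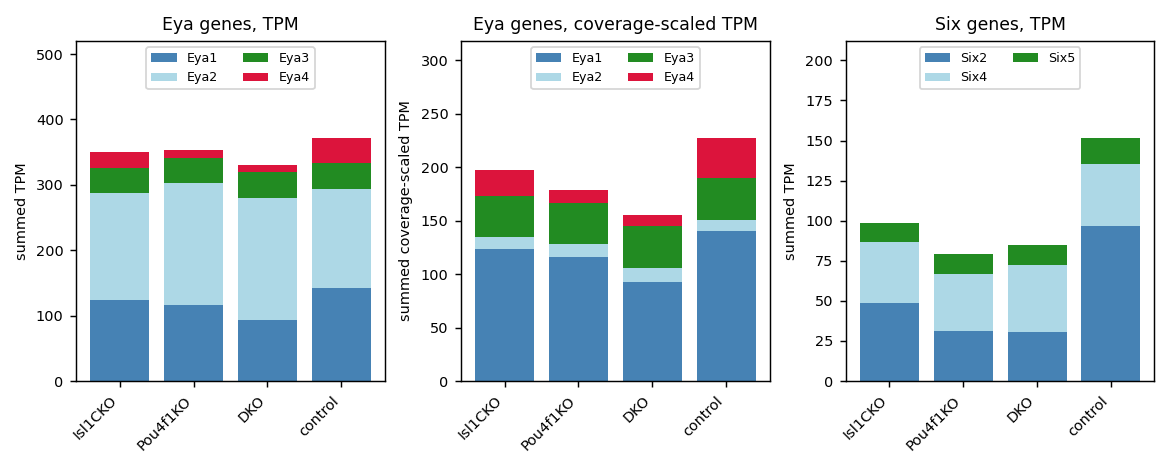
Summed abundance (y axis, from 0) of the Eya genes in TPM, of the Eya genes in coverage-scaled TPM and of the Six-family genes in TPM, stacked by gene, for 1 library per label (x axis). The Eya4 and Six2 segments are thinner in each mutant library than in control, and the size of the Eya2 segment depends on the scale.

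Among the Six-family factors, Six2 differed most. This gene is known for holding kidney progenitors in an undifferentiated state and is also made in head mesenchyme. Six2 (chromosome 17, 85684268 to 85688254, on the minus strand, with as many as 3 exons) was at 48.8 TPM in Isl1CKO, 31.0 TPM in Pou4f1KO, 30.8 TPM in DKO and 96.7 TPM in control. Control was the highest library by a wide margin, Isl1CKO was second, and Pou4f1KO and DKO lay together at the bottom. The log2 ratios to control were −0.97, −1.61 and −1.62, at percentiles 0.704, 0.465 and 0.711 of all genes compared. Isl1CKO is just short of the 2-fold line and passed it (−1.16) under pan-neuronal scaling.

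Six4, whose product shares targets with other SIX-family factors in muscle and sensory ganglia, hardly differed between libraries. Six4 (chromosome 12, 73099609 to 73113425, on the minus strand, with as many as 3 exons) was at 38.0 TPM in Isl1CKO, 35.8 TPM in Pou4f1KO, 41.3 TPM in DKO and 38.7 TPM in control. Six5, which stands beside the myotonic dystrophy gene Dmpk, was the lowest Six-family member here. Six5 (chromosome 7, 19094544 to 19098345, on the plus strand, with as many as 3 exons) was at 11.8 TPM in Isl1CKO, 12.4 TPM in Pou4f1KO, 12.9 TPM in DKO and 16.2 TPM in control. All mutant libraries were below control, with log2 ratios of −0.43, −0.36 and −0.31, and none reached 1.5-fold. Its row overlaps 75 bases of Gm4969 on the other strand, and the libraries were strand-specific per the labels' protocols.

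The sum of Six2, Six4 and Six5 was 98.6 TPM in Isl1CKO, 79.3 in Pou4f1KO and 85.0 in DKO, against 152 TPM in control. Six2 was 63.8% of that sum in control, and 49.5%, 39.1% and 36.2% of it in Isl1CKO, Pou4f1KO and DKO. In both libraries with Pou4f1 deleted, Six4 was the largest of the 3.

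Dach1, a cofactor of EYA and SIX-family proteins that is known mostly as a repressor, was among the more abundant members. Dach1 (chromosome 14, 97786846 to 98169765, on the minus strand, with as many as 12 exons) was at 112 TPM in Isl1CKO, 102 TPM in Pou4f1KO, 96.4 TPM in DKO and 96.8 TPM in control. Its log2 ratios to control were 0.21, 0.07 and −0.01. The first stayed above 0 but fell to 0.019 under pan-neuronal scaling. The second became negative under pan-neuronal scaling and the third turned positive under median-of-ratios scaling and in FPKM, so no direction is given for the second or the third. The highest of the 4 levels was 1.16 times the lowest.

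The order of the members by TPM changed at few places. In control it ran Eya2, Eya1, Dach1, Six2, Eya3, Six4, Eya4, Six5. In Isl1CKO the order was the same. In Pou4f1KO, Six2 stood below Eya3 and Six4 at place 6. In DKO Six2 was again at place 6 and Eya4 was the lowest of the 8, while Dach1 stood above Eya1 at place 2 and Six4 above Eya3 at place 4. Dach1 and Six2 were level in control (96.8 and 96.7 TPM), as were Eya3, Six4 and Eya4 (39.3, 38.7 and 38.4 TPM). These are TPM, corrected for length, and the place of Eya2 would be different from coverage.

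Set against all genes, the comparison of Isl1CKO with control held 0 of 8 members higher and 0 lower, where 0.585% of all genes were higher and 0.618% lower. Pan-neuronal scaling changed this to 1 member lower (Six2), and moved the split over all genes to 66 higher and 163 lower, against 88 and 93 as deposited. The members' median log2 ratio was −0.11 and that of all genes −0.02. Of the 8 members, 6 had ratios below 0, as did 56.5% of all genes.

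Pou4f1KO against control had 0 members higher and 2 lower, Six2 and Eya4, where 0.977% of all genes were higher and 1.73% lower. Pan-neuronal scaling kept both members lower and moved the split over all genes to 99 higher and 414 lower, against 147 and 260. The median was −0.19 over the members and 0.02 over all genes. In DKO against control 0 members were higher and the same 2 were lower, where 1.01% of all genes were higher and 2.34% lower, with medians of −0.16 and −0.01. All these comparisons share the control library. The members were picked by family, and 6 of 8 stayed between the 5th and the 95th percentile of all genes in each of the 5 comparisons made.

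At the lower threshold of 1.5-fold 0 members were higher in any comparison, where 2.15% of all genes were higher in Isl1CKO, 3.47% in Pou4f1KO and 3.63% in DKO against control, and 3.47% and 2.44% in DKO against Isl1CKO and against Pou4f1KO. Lower by 1.5-fold were 1 member (Six2) in Isl1CKO, where 3.26% of all genes were, and 2 members (Six2 and Eya4) in Pou4f1KO, where 4.21% were. In DKO 3 members were lower, where 5.28% of all genes were. Eya1 joined Six2 and Eya4 there, just past the line in TPM and short of it in FPKM. In DKO against Isl1CKO 2 members (Eya4 and Six2) were lower by 1.5-fold, where 3.3% of all genes were. In DKO against Pou4f1KO 0 were, where 3.68% of all genes were.

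**Figure D3:**
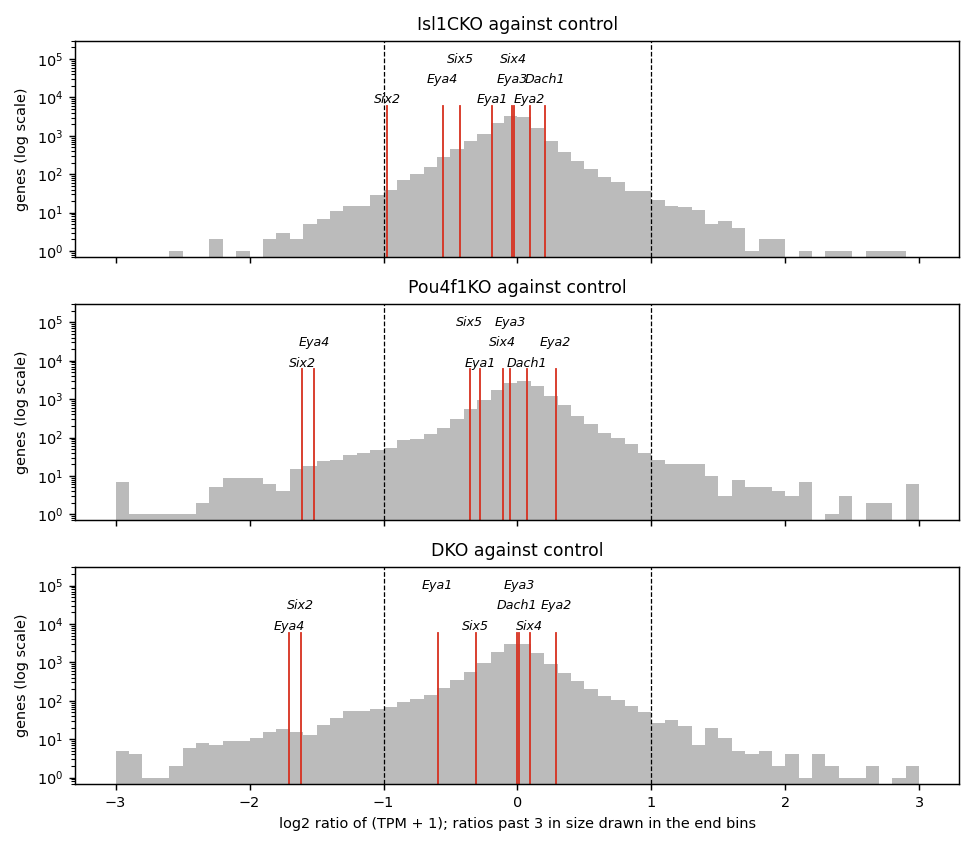
Number of genes (y axis, log scale) by log2 ratio of (TPM + 1) to control (x axis) for Isl1CKO, Pou4f1KO and DKO, with the 8 members as red lines and 2-fold as dashed lines. Six2 and Eya4 lie in the lower tail in each panel, past 2-fold in Pou4f1KO and DKO. In Isl1CKO they lie below the 5th percentile but short of 2-fold. The other members lie within the bulk of the genes.

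The library labelled DKO was then compared with each single mutant, which asks what each label goes with when the other gene is already marked as deleted. Against Isl1CKO, 0 members were higher and 1 was lower, where 0.87% of all genes were higher and 1.23% lower. The lower one was Eya4, at 11.1 TPM in DKO and 25.7 TPM in Isl1CKO, a log2 ratio of −1.15. Six2 was at 30.8 TPM in DKO and 48.8 TPM in Isl1CKO, a ratio of −0.65 that passes 1.5-fold but not 2-fold. Eya1 had a ratio of −0.41 and the others lay between −0.21 and 0.20.

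Against Pou4f1KO, DKO had 0 members higher and 0 lower, where 0.645% of all genes were higher and 1.12% lower. Pan-neuronal scaling moved that split over all genes to 117 higher and 132 lower, against 97 and 168. The members' ratios lay between −0.32 (Eya1) and 0.20 (Six4). Six2 had a ratio of −0.01, which turned positive under pan-neuronal, median-of-ratios and protein-coding scaling and in FPKM, and Eya4 of −0.19.

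Each gene's label can thus be read in a pair of backgrounds that have no library in common. For the Pou4f1 label, Eya4 had log2 ratios of −1.15 in the Isl1CKO background and −1.52 in the control background, and Six2 of −0.65 and −1.61. Eya4 was the 1 member past 2-fold in both. For the Isl1 label, Eya4 had ratios of −0.19 in the Pou4f1KO background and −0.56 in the control background, and Six2 of −0.01 and −0.97.

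The departure from additivity is the DKO log2 ratio minus the sum of the ratios of both single mutants, all to the same control, and it has no error estimate. No member reached 1 in size, where 1.41% of all genes did upward and 1.11% downward. Six2 came nearest at 0.96, percentile 98.4 of all genes, because the single ratios sum to −2.58 while the DKO ratio was −1.62. It was 1.28 under pan-neuronal scaling, which moved the median departure of all genes by 0.31. Six5 had a departure of 0.47, Eya4 of 0.37, Six4 of 0.23 and Dach1 of −0.29. The remaining Eya genes lay between −0.13 and 0.11. The departures of Dach1, Eya1 and Eya2 were above 0 under pan-neuronal scaling, by less than that common shift.

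**Figure D4:**
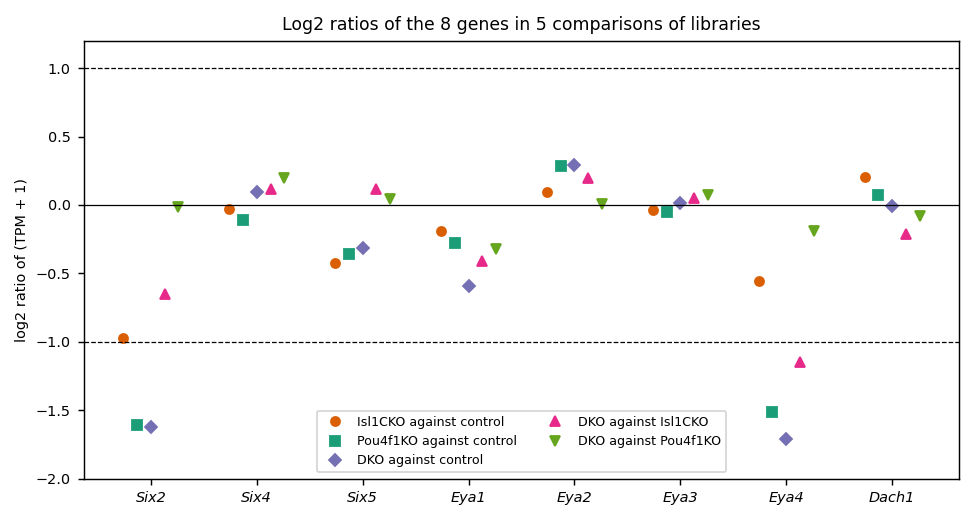
Log2 ratios of (TPM + 1) (y axis) of the 8 genes (x axis) in 5 comparisons, 1 point per comparison, with dashed lines at 2-fold. Eya4 is past the lower line in Pou4f1KO against control, DKO against control and DKO against Isl1CKO, Six2 in the first 2 of these, and no other gene crosses a line.

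Markers of other cells in the dissected tissue also differed between the libraries, in directions that were not the same from list to list. In bulk tissue, fewer cells of a type and less RNA per cell cannot be told apart. The 26 otic epithelium markers, which include Oc90, the main otoconial protein, and the adhesion gene Epcam, summed to 613 TPM in Isl1CKO, 393 TPM in Pou4f1KO, 315 TPM in DKO and 939 TPM in control. Their median log2 ratios to control were −0.61, −1.44 and −1.73, beside −0.56, −1.52 and −1.71 for Eya4. In Pou4f1KO 19 of the 26 were lower and 0 higher, where 1.73% of all genes were lower and 0.977% higher. In DKO 16 were lower and 0 higher, where 2.34% of all genes were lower and 1.01% higher. Eya4 lay near the middle of this list in each comparison with control: 16 markers had a lower ratio than Eya4 in Isl1CKO, 12 in Pou4f1KO and 14 in DKO. Six2 lay within the range of the list too, with 4, 12 and 15 markers below it. None of the markers was at 0 in any library. The part of this tissue in the ratios of Eya4 and Six2 was not tested.

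The mesenchyme markers had medians nearer to 0 than Six2 in Isl1CKO and Pou4f1KO and a median above 0 in DKO. All 20 summed to 270 TPM in Isl1CKO, 344 TPM in Pou4f1KO, 504 TPM in DKO and 373 TPM in control, and none was at 0. Over the 19 that were compared, the median log2 ratio to control was −0.51 in Isl1CKO, −0.38 in Pou4f1KO and 0.32 in DKO. Six2, at −1.62, was below all 19 in DKO, where the lowest marker had −0.35, and below all 19 in Pou4f1KO, where the lowest had −0.98. In Isl1CKO 1 marker, Prrx2 (−1.04), was below Six2. Eya4 too was below all 19 in Pou4f1KO and in DKO, while 7 markers were below it in Isl1CKO. The part of mesenchyme in the ratios of Six2 and Eya4 was not tested.

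**Figure D5:**
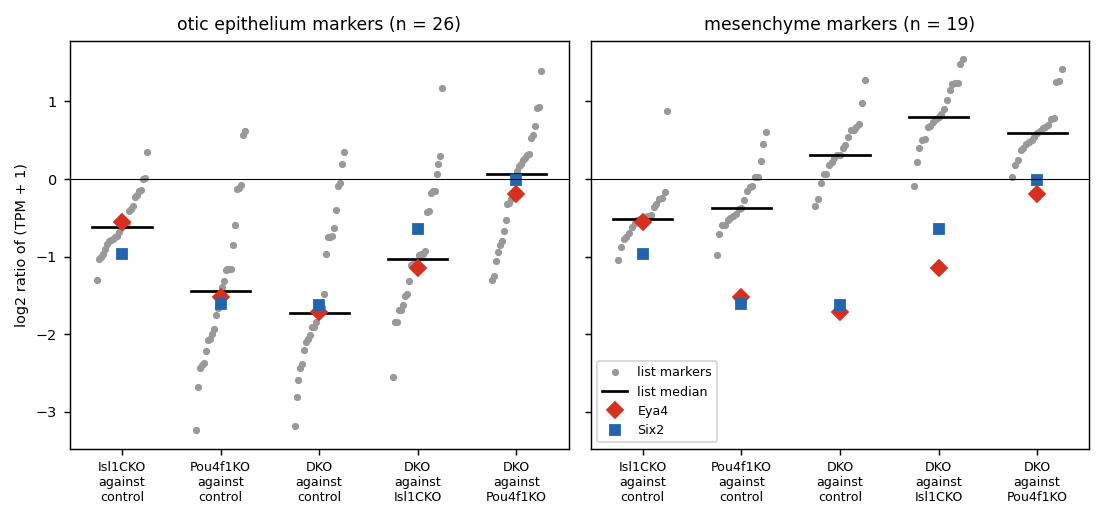
Log2 ratios of (TPM + 1) (y axis) of 26 otic epithelium markers and 19 mesenchyme markers (grey points, median as a bar) in 5 comparisons (x axis), with Eya4 and Six2 drawn over them. Eya4 sits close to the otic epithelium median in the comparisons with control. Both Six2 and Eya4 lie below every mesenchyme marker in Pou4f1KO and DKO against control.

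The other lists of cell markers differed as well. Among all genes, 0.585% were higher and 0.618% lower in Isl1CKO, 0.977% and 1.73% in Pou4f1KO and 1.01% and 2.34% in DKO. Neural tube and hindbrain genes, 18 of them compared, had 18 higher in Pou4f1KO (median log2 ratio 2.09), 2 higher in Isl1CKO (Lhx1 and Lhx2) and 4 higher in DKO (Sim1, Lhx1, Lhx2 and Nkx6-1), but 10 reached 1 TPM only in Pou4f1KO and so could only be higher there. Endothelial markers had medians of −0.45, 0.00 and 0.25 in Isl1CKO, Pou4f1KO and DKO, glial markers of −0.07, 0.19 and −0.03 and muscle markers, with 5 of 14 compared, of −0.14, 0.24 and −0.20. The summed muscle list was at 201, 85.3 and 217 TPM, against 64.8 TPM in control, and nearly all of it was the cardiac actin gene Actc1, at 191 TPM in Isl1CKO, 73.1 TPM in Pou4f1KO, 206 TPM in DKO and 53.9 TPM in control. Actc1 was past 2-fold in Isl1CKO (1.81) and in DKO (1.91), against the sign of the list's medians there. CVG neuron markers had medians of 0.19, 0.15 and −0.21. Of the 19, 1 was higher (Calb2) and 1 lower (Gata3) in Isl1CKO, and 0 were higher and 2 lower (Pvalb and Pou4f1) in Pou4f1KO. In DKO 1 was higher (Calb2) and 6 were lower, Pou4f1 among them. Pou4f1 is the gene that both labels name as deleted, so its calls say nothing about neurons. The part of these cells in the members' ratios was not tested.

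The genes whose pattern over the 4 libraries was most like that of Eya4 or Six2 were sought by the Euclidean distance between centred log2(TPM + 1) values, among 12050 genes that reached 5 TPM. Only these 2 members differed by at least 1 between their highest and lowest library. For Eya4 the nearest were Cldn3, a claudin gene of epithelial tight junctions, at a distance of 0.041, Gm266 at 0.043 and Spint2, a serine protease inhibitor gene of epithelia, at 0.047. Cldn3 was at 16.9 TPM in Isl1CKO, 8.10 TPM in Pou4f1KO, 6.84 TPM in DKO and 24.5 TPM in control. Spint2 was at 79.9, 41.4, 36.5 and 124 TPM in the same order. For Six2 the nearest were Irx3, an Iroquois homeobox gene, at 0.11, Brip1, a DNA helicase gene, at 0.20 and Arg2, a mitochondrial arginase gene, at 0.20. Irx3 was at 24.7 TPM in Isl1CKO, 15.8 TPM in Pou4f1KO, 14.7 TPM in DKO and 45.4 TPM in control. With 4 libraries many genes can share a pattern, and no p-value goes with these distances.

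Genes that act with the network were read from lists of textbook partners. To set beside the counts below, 0.585% of all genes were higher and 0.618% lower in Isl1CKO against control. The shares were 0.977% and 1.73% in Pou4f1KO and 1.01% and 2.34% in DKO against control. They were 0.87% and 1.23% in DKO against Isl1CKO, and 0.645% and 1.12% in DKO against Pou4f1KO. A further set of 4 Six-family, Dach and Sobp genes had none past 2-fold in any mutant against control. In it Sobp, the vertebrate relative of an insect SIX-binding protein, was at 32.9 TPM in Isl1CKO, 32.5 TPM in Pou4f1KO, 26.3 TPM in DKO and 41.2 TPM in control, and Dach2 was at 12.0, 13.7, 9.13 and 12.9 TPM in the same order; both were named after their values were seen. The eye and forebrain genes Six3 and Six6 reached 1 TPM only in Pou4f1KO. Six3, at 0.0106 TPM in DKO and 1.02 TPM in Pou4f1KO, was the 1 gene of this set past 2-fold in a comparison. It was lower in DKO against Pou4f1KO, only just past the line. Six3 passed the filter through Pou4f1KO alone, so it could only be lower in that comparison. Its levels are also near or below the 1 added to each TPM, so nothing is drawn from this call. Six3 was chosen after its values were seen.

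Partners and cofactors, such as Groucho corepressors, chromatin remodellers and the EYA substrate H2AX, numbered 25, all of them compared. In Isl1CKO 1 was higher and 0 were lower, in Pou4f1KO none was past 2-fold, and in DKO 1 was higher and 0 were lower. It was the same gene both times, Tle2, a Groucho corepressor gene, at 47.6 TPM in Isl1CKO, 15.3 TPM in Pou4f1KO, 48.1 TPM in DKO and 14.0 TPM in control. It was also the 1 cofactor gene higher in DKO against Pou4f1KO (log2 ratio 1.59), and none was past 2-fold in DKO against Isl1CKO. The medians to control were −0.04, 0.11 and −0.03.

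Of 29 genes known upstream of or beside the network in placodes, 25 were compared. In Isl1CKO 0 were higher and 2 lower, the zinc-finger gene Gata3 (log2 ratio −2.24) and the signal gene Fgf10 (−1.03). In Pou4f1KO 4 were higher and 8 lower. Pax6 (2.06), which reached 1 TPM only there, Tfap2b (1.60), Pax3 (1.33) and Pax8 (1.07) were higher, and Sall1 (−1.55) and the otic homeobox gene Dlx5 (−1.49) were lower. In DKO 1 was higher and 10 lower, among them Gata3 (−1.92), Sall1 (−1.89), Dlx5 (−1.74) and Irx3 (−1.56). The medians were −0.33, −0.05 and −0.49. In DKO against Isl1CKO 1 was higher (Tbx1, 1.30) and 2 lower (Pax2, −1.07, and Sall1, −1.01), and against Pou4f1KO 1 was higher (Tbx1, 1.74) and 5 lower, namely Pax6 (−2.51), Gata3 (−2.29), Tfap2b (−1.87), Fgf10 (−1.31) and Pax3 (−1.10).

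Genes known downstream of EYA and SIX-family factors in ear, neurons or muscle numbered 24, of which 21 were compared. In Isl1CKO 1 was higher, the neuronal bHLH gene Neurod4 (1.04), and 2 were lower, namely Myc (−1.19) and Ezr (−1.14), which encodes the membrane linker ezrin. In Pou4f1KO 2 were higher and 4 lower, with Pou4f3 (−2.86), Hmx3 (−1.93), Hmx2 (−1.39) and Lfng (−1.04) lower and Atoh1 (2.45) and Neurod4 (1.19) higher; Atoh1 reached 1 TPM only there. In DKO 0 were higher and 8 lower, among them Hmx3 (−3.18), Pou4f3 (−2.86), Hmx2 (−2.20) and Lfng (−1.36). The medians were −0.35, −0.17 and −0.29. In DKO against Isl1CKO 1 was higher (Bmp4, 1.18) and 3 lower (Pou4f3, −2.94, Hmx3, −2.55, and Hmx2, −1.85), and against Pou4f1KO 0 were higher and 4 lower, namely Atoh1 (−2.27), Neurog1 (−1.26), Hmx3 (−1.25) and Sox2 (31.6 TPM in DKO and 64.2 TPM in Pou4f1KO). Several genes of the last lists, Hmx2, Hmx3, Dlx5 and Pax2 among them, also stand in the otic epithelium list, and Pax3, Pax6 and Atoh1 stand in the neural tube list, so the lists are not separate evidence. Genes below the level or rank set for naming, such as Neurod4 and Pax8, were named after their values were seen.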

How the data were processed

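RNA of mouse cochleovestibular ganglia was sequenced from strand-specific libraries, per the labels' protocols. StringTie, HISAT2, SAMtools, Trimmomatic and FastQC and the build mm10 are named, per the submitters' processing notes, with no order, version or settings, and the annotation is likewise not given in these sources. The deposited tables give TPM, which the authors scaled to 1000000 per library, FPKM, which the authors computed per length and depth, and coverage, the deposited mean read depth per base, not scaled between libraries. Rows sharing a symbol were summed (25239 symbols).

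The deposited TPM were compared as log2(TPM + 1) after a filter of 1 TPM in at least 1 library, which makes differences of low genes look smaller. Read counts were not used here, so depth was taken from the most frequent ratio of coverage to FPKM (56.3% to 56.9% of genes of at least 1 FPKM lay within 0.02 of it), which corresponds to gigabases aligned. No interval was computed. With 1 library per genotype no test was made: an additive fit of both labels would leave 1 residual degree of freedom, which is the departure itself. The calling step was tested on simulated data. GENCODE M21 gave exon numbers and gene types, and the RefSeq table gave upstream sequences, for 6 of the 8 members. Python 3.11.15, pandas 2.3.3 and numpy 2.4.6 were used.

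The 8 members, the gene lists and the comparisons were chosen with earlier results of these data known. All 8 members are named in every comparison, with Isl1 and Pou4f1. From each partner list up to 4 genes past 2-fold with the largest ratios and at least 5 TPM were named per comparison, and up to 3 genes from a marker list. Pattern likeness was sought for members differing by at least 1 in log2 over the libraries. Alternatives were FPKM, a pseudocount of 0.1, no filter or 5 TPM, pan-neuronal, median-of-ratios and protein-coding scaling, and 1.5-fold. Coverage in place of TPM was added after seeing the data.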

Additional observations from a re-analysis of the deposited data

Results flagged for a closer look

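For 4 members the difference tied to a label had opposite signs in the 2 backgrounds. With 1 library a genotype the difference between backgrounds was not tested, and no ratio here reached 1.5-fold. For each gene the gap between backgrounds is the same for both labels and equals its departure from additivity. The 2 labels are therefore not separate evidence. For the Pou4f1 label, Six4 had log2 ratios of 0.12 in DKO against Isl1CKO and −0.11 in Pou4f1KO against control. Six5 had 0.12 and −0.36, Eya3 had 0.053 and −0.054, and Dach1 had −0.21 and 0.073, in the same order of comparisons. For the Isl1 label, Six4 had log2 ratios of 0.20 in DKO against Pou4f1KO and −0.027 in Isl1CKO against control. Six5 had 0.046 and −0.43, Eya3 had 0.070 and −0.038, and Dach1 had −0.078 and 0.21, in that order. Under pan-neuronal scaling the opposite signs were lost for Dach1, which had −0.19 in DKO against Isl1CKO and −0.23 in Pou4f1KO against control, and 0.057 in DKO against Pou4f1KO and 0.019 in Isl1CKO against control.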

How the results depend on the processing

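Six2 and Eya4 stayed lower past 2-fold in Pou4f1KO and in DKO against control, and Eya4 in DKO against Isl1CKO, under every alternative run. The change of filter and the 1.5-fold threshold leave these ratios as they are, so those runs could not change this. Over all the alternatives the Eya4 log2 ratio lay between −1.80 and −1.44 in Pou4f1KO and between −1.87 and −1.56 in DKO. That of Six2 lay between −1.91 and −1.59 and between −1.78 and −1.55. Pan-neuronal scaling gave 1 lower member in Isl1CKO against control and 1 member with a departure of at least 1, in place of 0 each. At 1.5-fold there was 1 lower member in Isl1CKO against control and 2 in DKO against Isl1CKO, 1 departure, and 2 members past that fold in both backgrounds of a label. Coverage in place of TPM changed no member count. No called member reversed.

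Pan-neuronal scaling moved the median log2 ratio of all genes by −0.18 in Isl1CKO, −0.28 in Pou4f1KO and −0.16 in DKO against control, and by 0.13 in DKO against Pou4f1KO; relative to that shift the members' ratios are as given. Counts over all genes, 88 to 352 per comparison and direction as reported, were 220 to 605 with a pseudocount of 0.1, 25 to 186 with FPKM, 323 to 795 at 1.5-fold, 163 and 414 lower in Isl1CKO and Pou4f1KO with pan-neuronal scaling, against 93 and 260, and as low as 51 with the 5 TPM filter and with protein-coding scaling. The FPKM counts are lower because the same pseudocount is larger beside smaller values. No paired analysis was possible because the groups share only 1 replicate number and the result comes from no test; each label is read in both backgrounds as values only. Leaving out a replicate would leave a genotype with no library.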
